A study of Mus musculus with 8 samples.

Results

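The bone morphogenetic protein (BMP) and activin ligands and antagonists examined here were 9 of the 22274 genes in the count table of an RNA-seq experiment on primary murine cardiac fibroblasts. They were chosen by gene symbol: the BMP ligand genes Bmp2, Bmp4, Bmp6 and Gdf6, the activin beta chain genes Inhba and Inhbb, and the antagonist genes Fst, Fstl3 and Grem1. All 9 passed the filter on low counts, which left 13533 tested genes. The experiment addressed which transcripts change when interferon regulatory factor 7 (IRF7), a transcription factor of the interferon response, is supplied to fibroblasts under a profibrotic stimulus. The GFP group (n = 4 libraries) received an empty vector, and the OEIRF7 group (n = 4 libraries) received a vector for IRF7, and both groups were treated with TGF-β at 5 ng/ml for 24 h, so no library shows cells without TGF-β. The study describes adenovirus and lists, among its reagents, a construct with human IRF7, a FLAG tag and EGFP behind the CMV promoter, whereas the series' own design text says that an adeno-associated virus was used. The study's reagents also list an adeno-associated virus with mouse Irf7 behind the periostin promoter, which the study describes for injection into mice. The mouse strain and age for this experiment are not given in the sources used here, and the study speaks of biological replicates, but in a number that differs from the libraries here. No source used here ties each library to an animal or culture, so p-values measure the spread between these libraries, which may be technical.

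Total counts were 24888589 to 27095611 in the GFP libraries and 24454801 to 28658826 in the OEIRF7 libraries. Mouse Irf7 went against the label of the second group, with 107, 147, 92.0 and 126 CPM (counts scaled to library size) in the GFP libraries and 14.9, 14.5, 14.9 and 16.4 CPM in the libraries labelled OEIRF7 (log2 fold change -2.96 ± 0.12 (SE), edgeR adjusted p = 7.72e-11). If the vector carried the human gene, these mouse counts check only the cells' own gene. If it carried the mouse gene, vector transcripts could count here too, and the lower level would go against the group labels. Which vector was used is not settled by the sources used here. Every direction below is therefore that of the libraries labelled OEIRF7 against those labelled GFP. Fibroblast markers were abundant, with summed levels of 13444 to 13837 CPM in GFP and 12754 to 13714 CPM in OEIRF7 libraries (2 of 9 genes higher and 4 lower). Of 8 myofibroblast markers 7 were lower and 1, Lox, was higher (24502 to 25997 against 20508 to 22721 CPM). Macrophage markers were higher for 6 of 10 genes and lower for 0, at 295 to 352 against 388 to 433 CPM. Most of the macrophage sum was Lyz2, at 202 and 235 CPM (log2 fold change 0.22). Epicardial markers were higher for 3 and lower for 2 of 7 tested genes of 9, at 152 to 162 against 130 to 136 CPM. Most of the epicardial sum was the 2 lower genes, Tbx18 (72.6 and 59.3 CPM) and Upk3b (51.8 and 20.8 CPM). Krt19 went the other way, from 4.75 to 18.5 CPM. The ranges overlapped for endothelial markers (3 of 10 higher, 1 lower, 1217 to 1325 against 1232 to 1336 CPM). Most of that sum was Eng, at 1047 and 1013 CPM. Ranges also overlapped for mural cell markers (3 of 7 tested higher, 3 lower, 124 to 137 against 109 to 132 CPM). So did those for cardiomyocyte markers (2 of 10 tested, 1 lower, 10.3 to 14.1 against 8.71 to 10.6 CPM). Most of the cardiomyocyte sum was Tnnt2, the gene called lower, at 11.3 CPM in GFP and 7.78 CPM in OEIRF7 libraries. Its libraries did not overlap (log2 fold change -0.54, edgeR adjusted p = 0.00057). Myh6 and Myh7 were at 0 in the OEIRF7 libraries and averaged 0.0094 and 0.038 CPM in the GFP libraries. Among all tested genes 29.0% were called higher and 29.9% lower, which is the background for these counts. The part of the myofibroblast, macrophage and epicardial differences in the results below was not tested.

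BMPs and activins are secreted dimers of the TGF-β superfamily. BMP ligands signal through type I and type II receptor kinases to SMAD1, SMAD5 and SMAD9, and the ID genes and SMAD6 are classical targets of that branch. Activins are built from the inhibin beta chains and signal through SMAD2 and SMAD3, the same SMADs that TGF-β uses. Both branches are held in check outside the cell, where follistatin and follistatin-like 3 bind activins with high affinity and gremlin 1 binds BMP2 and BMP4, and in the heart these proteins are studied for their part in fibroblast activation and scar formation.

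Promoter sequences were looked up for the members in a RefSeq table of the GRCm38.p6 build, which held 6 of the 9, not Bmp2, Gdf6 or Fst. Shown are the 250 bases before the annotated start, 5′ to 3′ on the gene's own strand, for Grem1, which rose most, for Bmp4, a ligand that fell, and for Inhbb, the one entry with an interferon regulatory factor core. Capitals mark a match to that core, written AANNGAAA, or to the GC-rich SMAD element GGCGCC. The windows are chr2:113758649-113758898, chr14:46390670-46390919 and chr1:119422249-119422498, all on the minus strand and outside annotated exons.
Grem1: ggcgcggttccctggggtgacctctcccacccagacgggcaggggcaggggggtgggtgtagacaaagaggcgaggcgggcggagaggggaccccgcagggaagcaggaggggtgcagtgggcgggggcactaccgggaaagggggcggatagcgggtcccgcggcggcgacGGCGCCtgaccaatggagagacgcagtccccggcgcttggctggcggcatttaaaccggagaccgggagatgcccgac
Bmp4: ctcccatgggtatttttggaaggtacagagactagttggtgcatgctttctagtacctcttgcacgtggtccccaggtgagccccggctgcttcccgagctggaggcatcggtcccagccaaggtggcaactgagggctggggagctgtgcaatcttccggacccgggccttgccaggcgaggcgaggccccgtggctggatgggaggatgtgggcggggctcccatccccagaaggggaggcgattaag
Inhbb: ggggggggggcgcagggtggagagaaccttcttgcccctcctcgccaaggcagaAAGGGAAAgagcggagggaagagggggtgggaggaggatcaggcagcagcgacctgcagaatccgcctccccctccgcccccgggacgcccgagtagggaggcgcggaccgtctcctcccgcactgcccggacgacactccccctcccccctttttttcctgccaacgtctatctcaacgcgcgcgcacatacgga

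The core was found 196 bases before the start of Inhbb and in no other of the 6 member promoters, and 21.3% of 32851 promoters of the same length held it on either strand. GGCGCC, which reads the same on both strands, was found 78 bases before the start of Grem1 and in 9.59% of all promoters. The AP-1 motif TGANTCA and the SMAD element GTCTAGAC were in 0 of 6 member promoters and in 6.75% and 0.167% of all promoters. Among the windows not printed, all 250 bases for Bmp6 and 2 bases for Fstl3 lay in annotated exons of the gene. The Bmp6 window is thus transcribed sequence in the annotation. The 3 printed windows were rich in G and C, with 72.0% for Grem1, 68.0% for Inhbb and 63.2% for Bmp4, against a median of 52.4% over all promoters. A match describes letters only, and binding was not measured.

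Of the 9 members, 3 were higher (Bmp2, Fstl3 and Grem1), 4 were lower (Bmp4, Bmp6, Inhbb and Fst) and 2 were not called (Gdf6 and Inhba) at an adjusted p under 0.05 in edgeR's quasi-likelihood test. The same shares over all tested genes were 29.0% higher and 29.9% lower, so members were called at shares near those of the whole transcriptome or somewhat above them. Past a log2 fold change of 1 in size, 2 members were higher (Bmp2 and Grem1) and 2 were lower (Bmp4 and Bmp6), where the tested genes gave 4.66% and 3.89%. By the thresholds of the study's methods, an unadjusted p under 0.05 with a fold over 1.5 or under 0.66, 2 members were higher and 3 were lower, Fst being added to the fallers, against 9.47% and 9.56% of tested genes. The median log2 fold change of the members was -0.11, beside 0.0015 over all tested genes, and the median size of the change was 0.95, beside 0.25. The members were chosen with earlier results of these data known, so these shares and medians do not test them against the background. The GFP and OEIRF7 libraries did not overlap for the 7 called members, each with an exact two-sided permutation p of 0.0286, the smallest that 4 against 4 allows, and 53.8% of tested genes did not overlap either.

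**Figure D1:**
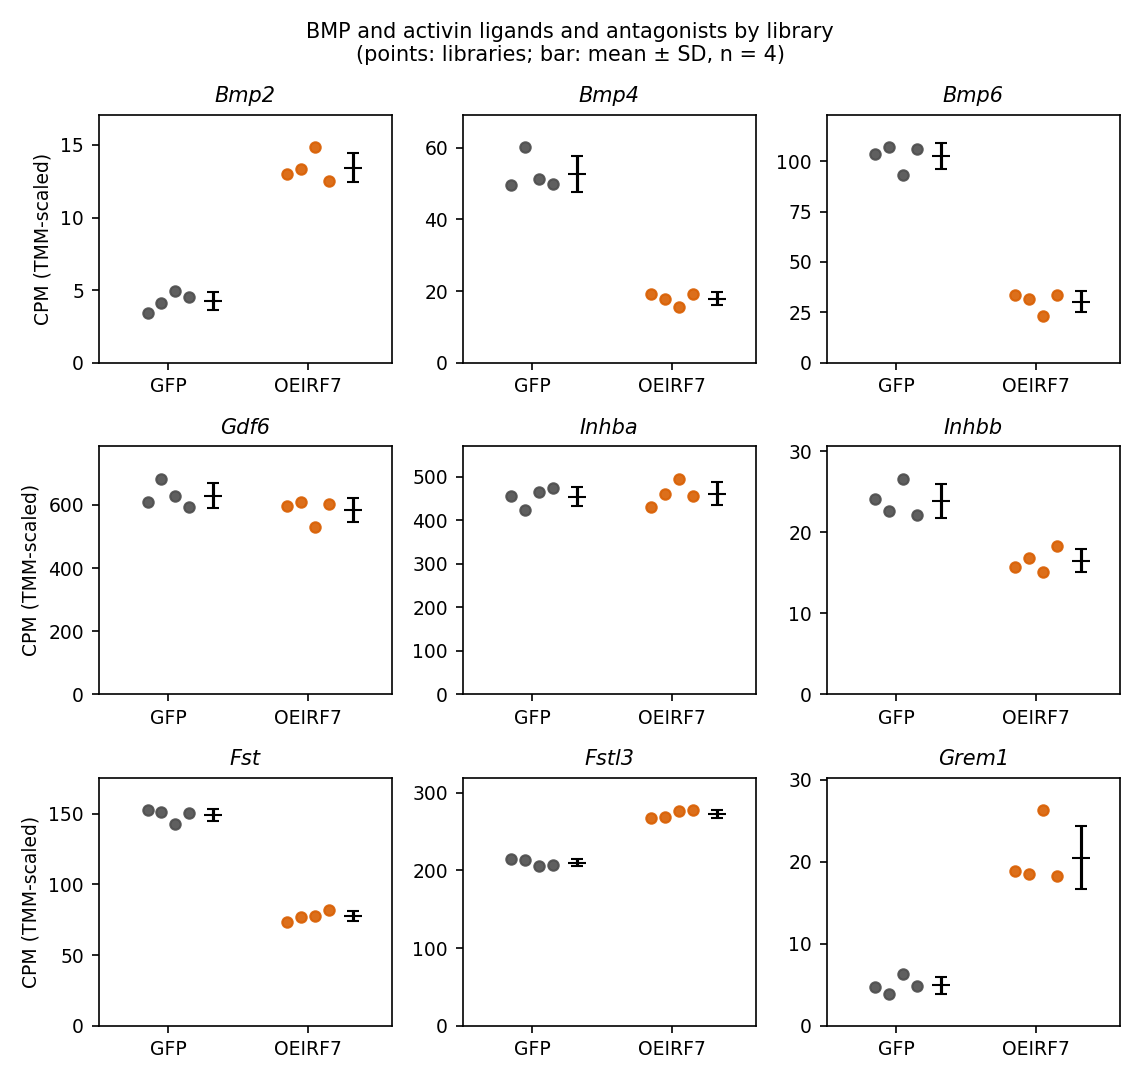
Each panel shows 1 member, with TMM-scaled CPM on the y axis starting at 0, 1 point per library (grey GFP, orange OEIRF7) and the mean ± SD of 4 libraries beside them. The 2 groups are apart for 7 members and overlap for Gdf6 and Inhba, where the means are 629 and 584 CPM and 454 and 461 CPM.

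**Figure D2:**
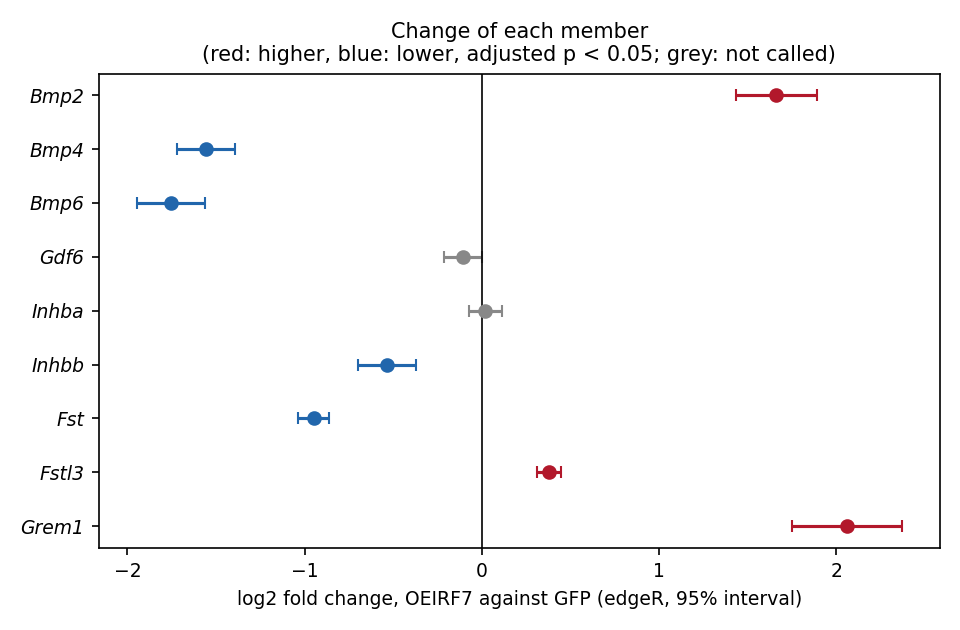
Points give the log2 fold change of OEIRF7 against GFP for each member and bars its 95% interval from edgeR, with red for called higher, blue for called lower and grey for not called. The estimates run from -1.75 for Bmp6 to 2.06 for Grem1.

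The 4 BMP ligand genes moved in different directions. Bmp4 and Bmp6 fell, Bmp2 rose from a low level, and Gdf6, the most abundant of the 9 members per length, was not called.

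Bmp4, on chromosome 14 at 46383520 to 46390669 of GRCm38 (minus strand), encodes a ligand that acts in early heart and mesoderm formation. Its levels were 49.7, 60.2, 51.4 and 49.8 CPM in the GFP libraries and 19.1, 17.8, 15.5 and 19.3 CPM in the OEIRF7 libraries. Every OEIRF7 library lay below every GFP library, and GFP replicate 2 was the highest of its group. Bmp4 was 2.95-fold lower, with a log2 fold change of -1.56 ± 0.08 (SE, edgeR adjusted p = 4.09e-10). In bulk RNA, fewer cells that make a transcript and less of it per cell cannot be told apart, here and in all results that follow.

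Bmp6, on chromosome 13 at 38345107 to 38500302 (plus strand), encodes a ligand best known as the inducer of hepcidin in iron regulation. It measured 104, 107, 93.0 and 106 CPM in the GFP libraries and 33.6, 31.5, 23.0 and 33.5 CPM in the OEIRF7 libraries. The groups were far apart, and OEIRF7 replicate 3 was the lowest of all 8 libraries. The fall was the largest among the members, 3.37-fold, with a log2 fold change of -1.75 ± 0.09 (SE, edgeR adjusted p = 6.13e-10). The annotation places 2 genes on the opposite strand across Bmp6, and one of them, Txndc5, an abundant gene for a protein disulfide isomerase of the endoplasmic reticulum, had a log2 fold change of -0.02 ± 0.03 (SE, edgeR adjusted p = 0.58) at 663 and 654 CPM. Whether the counting used strand is not given in the sources used here.

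Bmp2, on chromosome 2 at 133552159 to 133562885 (plus strand), encodes a close relative of BMP4 that gremlin 1 also binds. It was counted 92, 103, 122 and 118 times in the GFP libraries and 336, 387, 378 and 309 times in the OEIRF7 libraries, that is 3.43 to 4.94 CPM against 12.5 to 14.8 CPM. The 2 ranges were well apart at both counts and CPM. The rise was 3.16-fold, with a log2 fold change of 1.66 ± 0.11 (SE, edgeR adjusted p = 6.49e-09). Bmp2 and Bmp4, although close relatives, thus moved in opposite directions in the same libraries. The ratio of Bmp2 to Bmp4 FPKM (fragments scaled to transcript length and to the library's mapped fragments) was 0.038 to 0.053 in the GFP libraries and 0.37 to 0.52 in the OEIRF7 libraries.

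Gdf6, on chromosome 4 at 9844372 to 9862345 (plus strand), encodes a growth factor of the BMP family that patterns joints and bones. It measured 609, 683, 630 and 594 CPM in the GFP libraries and 596, 609, 529 and 604 CPM in the OEIRF7 libraries. The groups overlapped, with OEIRF7 replicate 3 below all others. The log2 fold change of -0.11 ± 0.05 (SE) was not called (edgeR adjusted p = 0.079, exact two-sided permutation p = 0.17), with a 95% interval from -0.21 to -0.0001. The fit without GFP replicate 4 gave -0.13 and an adjusted p of 0.041, and the fit without OEIRF7 replicate 3 gave -0.06 and an adjusted p of 0.22. With the replicate number as a block, edgeR gave -0.11 and an adjusted p of 0.026, so the call depended on the model.

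Summed per length, the 4 BMP ligand genes gave 232 ± 14.3 FPKM in GFP and 189 ± 13.5 FPKM in OEIRF7 libraries (SD, n = 4), and the ranges, 221 to 253 and 169 to 197, did not overlap. Gdf6 made up 75.9% ± 0.79 of this sum in GFP and 88.5% ± 0.52 in OEIRF7 libraries. Bmp4 went from 11.4% ± 0.46 to 4.90% ± 0.14 and Bmp6 from 12.2% ± 0.93 to 4.60% ± 0.61, while Bmp2 went from 0.51% ± 0.08 to 2.03% ± 0.30. Without Gdf6 the sum was 56.0 ± 3.67 FPKM in GFP and 21.8 ± 2.25 FPKM in OEIRF7 libraries, and Bmp2 accounted for 2.13% ± 0.39 of it in the first group and 17.7% ± 3.24 in the second. These sums and shares carry no test, because the genes in them were chosen with results known.

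**Figure D3:**
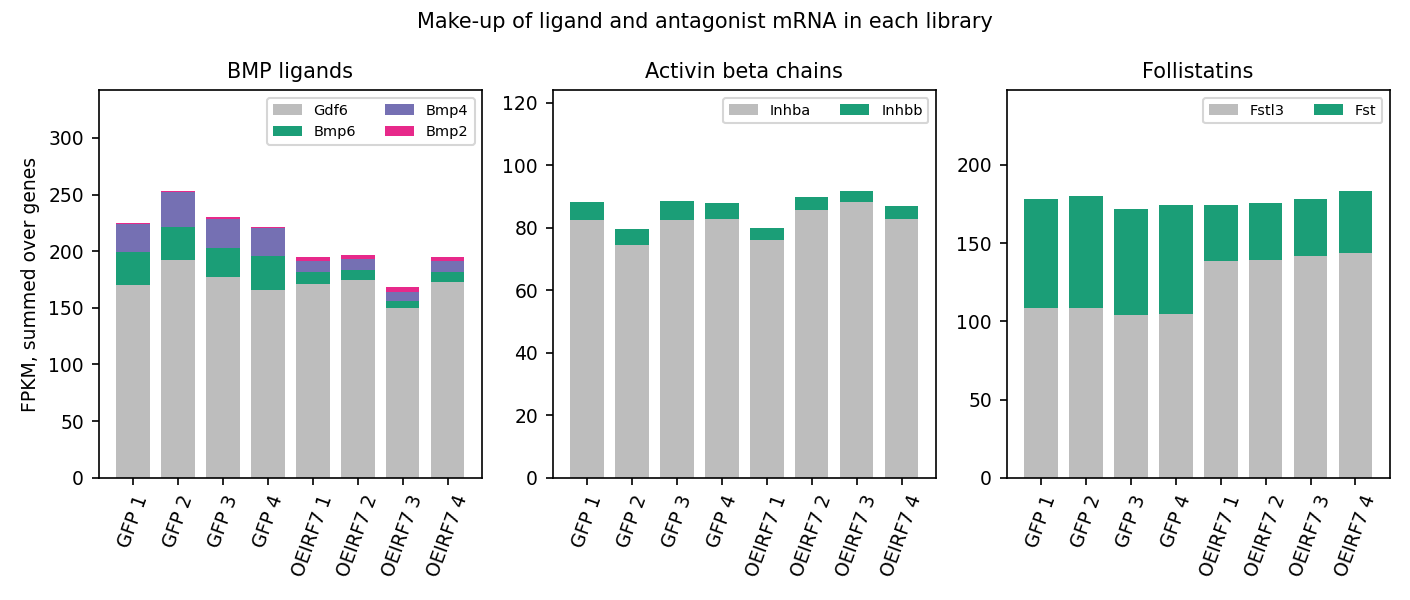
Stacked bars give FPKM summed over the BMP ligand genes (left), the activin beta chain genes (middle) and the follistatin genes (right) in each of the 8 libraries, with y axes from 0. The Bmp4 and Bmp6 segments shrink in the OEIRF7 libraries and the Fst segment gives way to Fstl3, while the follistatin sums stay between 172 and 183 FPKM.

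Grem1, on chromosome 2 at 113746164 to 113758646 (minus strand), encodes gremlin 1, a secreted antagonist of the DAN family. It was counted 125, 96, 155 and 128 times in the GFP libraries and 488, 537, 670 and 451 times in the OEIRF7 libraries, which is 4.66, 3.85, 6.28 and 4.88 CPM against 18.9, 18.5, 26.3 and 18.3 CPM. All OEIRF7 libraries were above all GFP libraries, and OEIRF7 replicate 3 stood above the other 3 of its group. Grem1 had the largest rise of the members, 4.17-fold, with a log2 fold change of 2.06 ± 0.14 (SE, edgeR adjusted p = 1.69e-08), and 1.66% of tested genes had a larger change in size. Without OEIRF7 replicate 3 the log2 fold change was 1.92 (edgeR adjusted p = 9.72e-10).

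The sum of BMP ligand FPKM was 153 to 275 times that of Grem1 in the GFP libraries and 26.5 to 43.8 times in the OEIRF7 libraries, with medians of 197 and 42.8. The log2 ratios did not overlap, and their medians were 7.62 and 5.42. Gdf6 carried most of the numerator. Without it the medians were 5.60 and 2.32, or 48.4 and 4.98 times Grem1 on the linear scale. OEIRF7 replicate 3, which had the highest Grem1 and the lowest Bmp4, Bmp6 and Gdf6 of its group, had the lowest ratio.

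On the activin side, the main chain gene was not called. Inhba, on chromosome 13 at 16011851 to 16031621 (plus strand), encodes the beta A chain, whose dimer is activin A, a cytokine widely studied in fibrosis. Its levels were 456, 424, 464 and 474 CPM in the GFP libraries and 431, 461, 496 and 455 CPM in the OEIRF7 libraries, and the groups overlapped. The log2 fold change was 0.02 ± 0.04 (SE), with a 95% interval from -0.07 to 0.11 (edgeR adjusted p = 0.72, exact two-sided permutation p = 0.80). The estimate changed sign, to -0.01 without GFP replicate 2 and to -0.02 without OEIRF7 replicate 3. At this depth and spread, a change in either direction larger than the interval's bounds was outside the 95% range.

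Inhbb, on chromosome 1 at 119415465 to 119422248 (minus strand), encodes the beta B chain of activin B. It measured 24.1, 22.6, 26.6 and 22.1 CPM in the GFP libraries and 15.7, 16.9, 15.1 and 18.2 CPM in the OEIRF7 libraries. The groups did not overlap, although the gap between the lowest GFP and the highest OEIRF7 library was small beside that of Bmp4 or Bmp6. Inhbb was 1.45-fold lower, with a log2 fold change of -0.53 ± 0.08 (SE, edgeR adjusted p = 2.66e-05). Because Inhba supplied 93.5% ± 0.49 of the FPKM of both chains in GFP and 95.5% ± 0.47 in OEIRF7 libraries, the sum was 86.0 ± 4.23 and 87.1 ± 5.19 FPKM (SD, n = 4) and overlapped between the groups. Inha, the alpha chain that turns a beta chain into an inhibin, was at 0.81 and 0.79 CPM and was not called.

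The 2 follistatin genes moved in opposite directions. Fst, on chromosome 13 at 114452290 to 114458951 (minus strand), encodes follistatin, and it measured 153, 151, 143 and 150 CPM in the GFP libraries and 73.2, 76.6, 77.8 and 81.9 CPM in the OEIRF7 libraries. The groups were narrow and well separated. Fst was 1.93-fold lower, with a log2 fold change of -0.95 ± 0.04 (SE, edgeR adjusted p = 1.00e-10).

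Fstl3, on chromosome 10 at 79777272 to 79782630 (plus strand), encodes follistatin-like 3, which lacks the heparin-binding sequence that follistatin uses to stay near the cell surface. It measured 214, 213, 205 and 207 CPM in the GFP libraries and 267, 269, 277 and 278 CPM in the OEIRF7 libraries. Again no library overlapped. Fstl3 was 1.30-fold higher, with a log2 fold change of 0.38 ± 0.03 (SE, edgeR adjusted p = 1.10e-07), the smallest change among the called members, and 35.1% of tested genes had a larger one in size.

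Per length, the sum of the 2 follistatin genes was 176 ± 3.72 FPKM in GFP and 178 ± 3.91 FPKM in OEIRF7 libraries (SD, n = 4), with overlapping ranges, but Fst made up 39.6% ± 0.47 of it in the first and 20.9% ± 0.64 in the second. The ratio of Fst to Fstl3 FPKM was 0.64 to 0.67 in the GFP libraries and 0.26 to 0.28 in the OEIRF7 libraries. The ratio of activin beta chain to follistatin FPKM was 0.44 to 0.52 in the GFP libraries and 0.46 to 0.51 in the OEIRF7 libraries, with medians of 0.50 and 0.49. So the make-up of the follistatin mRNA differed between the groups, and its amount relative to activin chain mRNA overlapped.

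**Figure D4:**
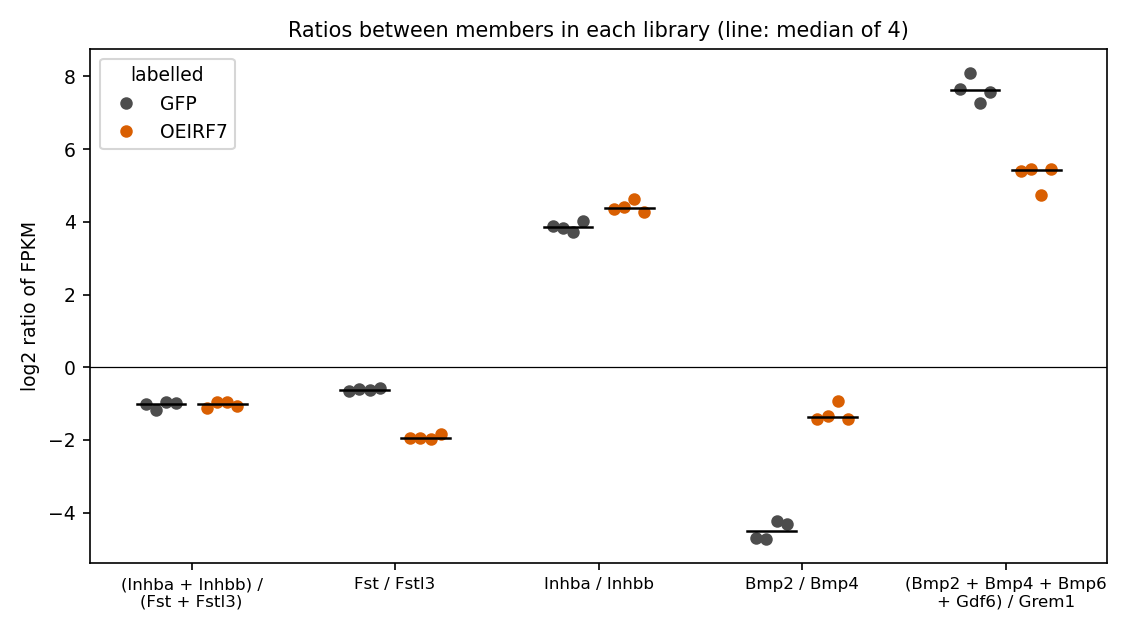
The y axis is the log2 ratio of FPKM, with 1 point per library (grey GFP, orange OEIRF7) and a line at the median of 4. The groups overlap for activin chains over follistatins, with medians of -1.0 and -1.02, and are apart for the other 4 ratios, among them BMP ligands over Grem1 at 7.62 and 5.42.

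Ordered by mean FPKM, the members in the GFP libraries ran from Gdf6 (176) through Fstl3 (106), Inhba (80.5), Fst (69.6), Bmp6 (28.2), Bmp4 (26.6) and Inhbb (5.55) to Bmp2 (1.19) and Grem1 (1.17). The libraries' FPKM overlapped between Bmp6 and Bmp4 and between Bmp2 and Grem1, and not between the other neighbours in this order. In the OEIRF7 libraries the first 4 were in the same order, at 167, 141, 83.2 and 37.1 FPKM. They were followed by Bmp4 (9.26), Bmp6 (8.73), Grem1 (4.99), Inhbb (3.91) and Bmp2 (3.81), with overlap between Bmp4 and Bmp6 and between Inhbb and Bmp2. Grem1, last in the GFP libraries, thus lay above Inhbb in the OEIRF7 libraries. The log2 ratios of mean FPKM and the edgeR log2 fold changes of the counts differed by at most 0.06 for any member.

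The rest of the pathway was described by 4 lists of 69 genes, of which 45 were tested, 12 were called higher and 14 lower, with a median log2 fold change of -0.03. That is 12 and 14 of 45 beside 29.0% and 29.9% of all tested genes, so the lists as a whole were called about as often as the background, and the description below concerns which genes moved.

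Of 24 other ligand and inhibin chain genes only 8 were tested, and 4 were higher and 1 was lower, beside 29.0% and 29.9% of all tested genes. Bmp5, of the same BMP subgroup as Bmp6, rose from 0.95 ± 0.37 to 2.37 ± 0.42 CPM (SD, n = 4), a log2 fold change of 1.32. Gdf15, a distant member of the superfamily induced by cell stress, rose from 15.6 ± 1.04 to 31.2 ± 1.90 CPM (log2 fold change 1.0). Bmp8a was called at 2.35 ± 0.30 and 3.53 ± 0.75 CPM (0.58, edgeR adjusted p = 0.010), but its libraries overlapped. Without OEIRF7 replicate 3 its log2 fold change was 0.45 (edgeR adjusted p = 0.041). Gdf11, which signals through the activin branch, fell from 40.2 ± 1.59 to 31.7 ± 3.27 CPM (-0.34). The other call was Amh at a mean below 1 CPM, and Gdf9, Inha and Lefty1 were not called.

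Of 18 other antagonists and extracellular modulators 12 were tested, and 5 were higher and 4 lower, beside 29.0% and 29.9% of all tested genes. Bambi, a decoy receptor without a kinase domain, rose from 4.14 ± 0.58 to 12.9 ± 1.59 CPM (SD, n = 4), a log2 fold change of 1.64 (edgeR adjusted p = 1.75e-08), and Nbl1, which encodes DAN itself, rose from 37.6 ± 1.32 to 76.9 ± 3.24 CPM (1.03). Nog, encoding noggin, was called at 0.85 ± 0.30 and 1.54 ± 0.50 CPM (0.85), but its libraries overlapped and its call was lost without GFP replicate 1, 2 or 4 or OEIRF7 replicate 1 or 4 (edgeR adjusted p 0.051 to 0.095). Bmper, a secreted chordin-like protein that binds BMPs, rose from 77.8 ± 3.84 to 103 ± 8.06 CPM (0.40). The other gene called higher was Bmp1, a protease that cleaves chordin, named here after its values were seen, with a log2 fold change of 0.13.

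Among the antagonists and modulators that fell, Fstl1, a secreted glycoprotein with a follistatin domain, was the most abundant, at 2149 ± 95.6 CPM in GFP and 1107 ± 77.3 CPM in OEIRF7 libraries (SD, n = 4, log2 fold change -0.96, edgeR adjusted p = 3.07e-10). Crim1, a transmembrane protein with chordin-like repeats, fell from 318 ± 4.32 to 199 ± 15.4 CPM (-0.68), and Twsg1, which binds BMPs together with chordin, fell from 175 ± 3.21 to 136 ± 4.21 CPM (-0.36). Chrd, encoding chordin, was called at 2.58 ± 0.34 and 1.80 ± 0.30 CPM (-0.52), and its call was lost without GFP replicate 2 (edgeR adjusted p = 0.078) or OEIRF7 replicate 3 (0.073) and with limma on log2(FPKM + 0.1) (adjusted p = 0.056).

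Most receptor genes were not called, where 58.9% of all tested genes were called, 29.0% higher and 29.9% lower. Of 13 receptors and co-receptors 11 were tested, 2 were higher, 1 was lower and 8 were not called, among them the type II receptor genes Bmpr2 and Acvr2a and the type I receptor genes Acvr1, Acvr1b and Acvrl1. Bmpr1b, a type I BMP receptor, rose from 8.40 ± 0.72 to 16.6 ± 2.42 CPM (SD, n = 4, log2 fold change 0.98), and Tgfbr3, the co-receptor betaglycan, rose from 18.2 ± 1.12 to 27.8 ± 1.97 CPM (0.61). Bmpr1a, the more abundant type I BMP receptor at 32.1 against 1.83 FPKM for Bmpr1b in the GFP libraries, fell from 171 ± 2.49 to 141 ± 6.15 CPM (-0.28).

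Of 14 transducers and direct targets of BMP signals, all tested, 8 were lower, 1 was higher and 5 were not called. Of all tested genes 29.9% were lower and 29.0% were higher. Smad6, an inhibitory SMAD, fell from 75.4 ± 3.54 to 25.2 ± 3.97 CPM (SD, n = 4, log2 fold change -1.58, edgeR adjusted p = 7.02e-10). Id3 and Id4, inhibitors of helix-loop-helix factors, fell from 50.4 ± 6.22 to 23.9 ± 1.84 CPM (-1.07) and from 4.25 ± 0.45 to 1.23 ± 0.32 CPM (-1.79), and Atoh8, a helix-loop-helix factor, fell from 22.5 ± 0.35 to 7.62 ± 0.72 CPM (-1.57). The other 4 that were lower, named after their values were seen, were Id1 (-0.91), Smad9 (-0.89), Hey1 (-0.76, below 1 CPM, edgeR adjusted p = 0.049) and Id2 (-0.62). Smad7, the inhibitory SMAD that TGF-β also induces, rose from 66.3 ± 2.57 to 87.1 ± 2.50 CPM (0.39), while Smad1, Smad5 and Smad4 had log2 fold changes of 0.04, 0.01 and 0.08 and were not called.

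**Figure D5:**
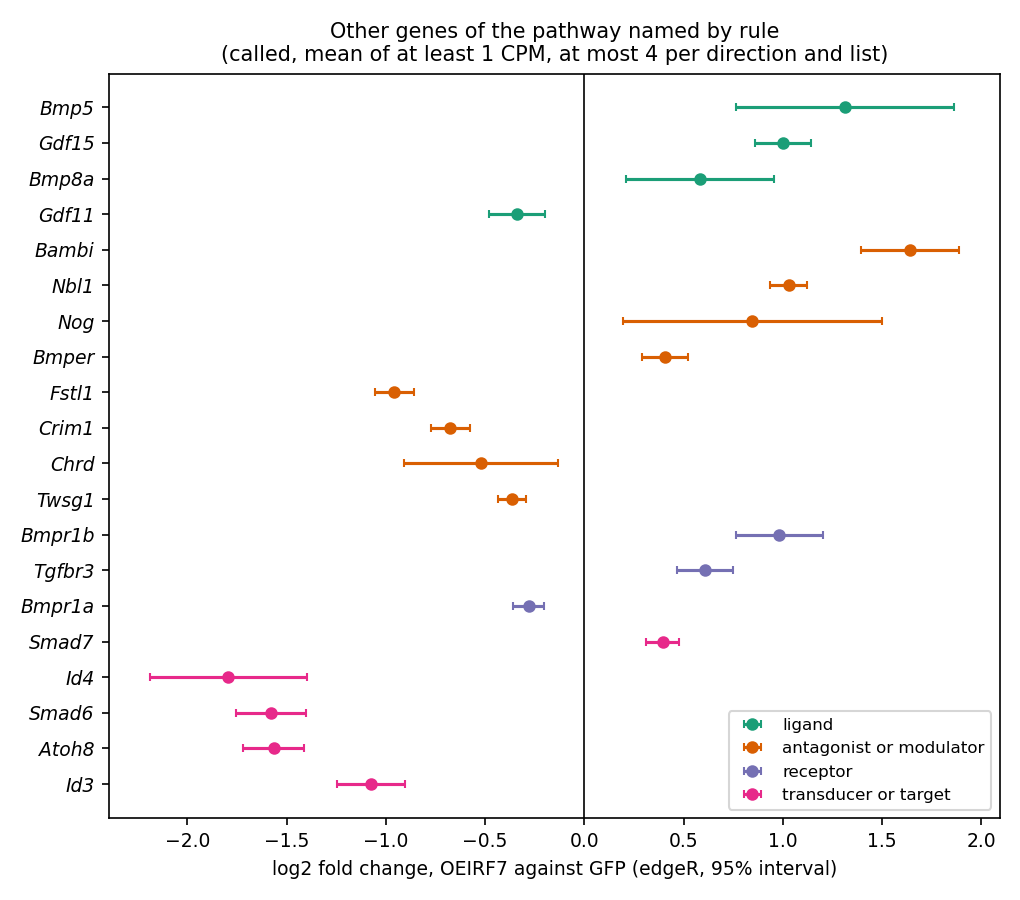
Points give the log2 fold change of OEIRF7 against GFP with its 95% interval from edgeR for the other pathway genes named by rule, coloured by role. Bambi (1.64) and Bmp5 (1.32) are farthest to the right and Id4 (-1.79), Smad6 (-1.58) and Atoh8 (-1.57) farthest to the left.

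Genes next to the members on the chromosome did not all share the direction of the member beside them. On both sides of Grem1, which rose, the nearest tested genes were lower: Fmn1 at 29.4 kb with a log2 fold change of -0.54 and Arhgap11a at 72.8 kb with -0.32. Beside Inhbb, Gli2, a transcription factor of hedgehog signalling 362 kb away, fell further than Inhbb itself (-2.68, from 5.98 to 0.94 CPM), and Ralb at 48.1 kb was not called (0.08, edgeR adjusted p = 0.072). Beside Fst, Mocs2 was higher (0.73) and Ndufs4 was not called (0.17). Beside Fstl3, Rnf126 at 10.3 kb was higher (0.51) and Palm at 10.9 kb was not called (0.01). Both nearest tested genes were higher for Bmp2, Fermt1 (1.88) and Hao1 (2.45), 606 and 934 kb away and both of low abundance, at 0.99 and 3.66 CPM and at 0.10 and 0.56 CPM. Both were lower for Bmp4, Ddhd1 (-0.19) and Cdkn3 (-1.01), and for Gdf6, Asph (-0.20) and 2610301B20Rik (-0.20). Beside Bmp6, Bloc1s5 was higher (0.41) and Snrnp48 was not called (-0.01), and beside Inhba, Gli3 was lower (-0.41) and Sugct was not called (0.04). Genes on the opposite strand also overlap Bmp4, Inhba, Fst and Fstl3 in the annotation, and none of these had a tested count.

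The genes whose pattern over the 8 libraries was most like that of Grem1, by Euclidean distance of centred log2 CPM, were Clcf1, a cytokine of the interleukin-6 family (distance 0.30), Fabp7, a fatty acid-binding protein (0.34), and Sprr1a, a small proline-rich protein (0.35), with log2 fold changes of 2.17, 2.08 and 2.04. Those most like Bmp6 were Tbx20, a cardiac T-box transcription factor (distance 0.15), Kif26b, a kinesin family member (0.17), and Map3k7cl (0.30), with log2 fold changes of -1.82, -1.73 and -1.69. Tbx20 was at 744 CPM in GFP and 211 CPM in OEIRF7 libraries. These distances mostly reflect the difference between the groups and carry no test.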

How the data were processed

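RNA-seq of 8 libraries of TGF-β-treated primary murine cardiac fibroblasts was used, 4 labelled GFP and 4 labelled OEIRF7. Per the study's methods, Trimmomatic-cleaned reads were aligned to GRCm38 by HISAT2, and HTSeq-count gave the raw counts that the authors deposited. FPKM values, deposited beside them, came from Cufflinks and are normalized for transcript length and depth by the authors. Tool versions and the strand setting are not given in the sources used here, and the study and the labels name different extraction and library kits. Columns with the authors' group means, log2 ratio, p-value and FDR hold their own comparison and were not used. In the table the letters NC read GFP in 121 symbols, which were restored by Ensembl identifier, and 0 lines named no gene.

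Counts were analysed with edgeR 4.0.16 in R 4.3.3 over the whole table: filterByExpr by group, TMM scaling (factors 0.989 to 1.01), glmQLFit and glmQLFTest without covariates, and Benjamini-Hochberg adjustment over 13533 genes. The study's methods name DESeq, for which edgeR stands in. CPM is the count scaled to the TMM-adjusted library total, log2 CPM uses a prior count of 2, and SE belongs to log2 fold changes and SD to levels. Sums of CPM over marker lists and the levels of untested genes use the library total without TMM scaling. The exact permutation tests are two-sided on log2 CPM. The common biological coefficient of variation was 0.056. Replicates differed beyond sampling noise (chi-square per degree of freedom 2.91 to 9.94). In simulated counts with 200 genes changed 2-fold, edgeR recovered 200 with 11 false calls among 13564 genes. The simulation gave all genes the same spread and left most unchanged, whereas 58.9% of tested genes were called here. Its figures therefore check the code and do not give error rates for the real comparison. Coordinates come from GENCODE M21 (GRCm38) and promoters from RefSeq (GRCm38.p6).

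The members and lists were chosen with earlier results of these data known. The pathway lists and their counts leave out 1 gene, which is not reported here. Named were all members, Irf7, at most 4 called genes of at least 1 CPM per direction and pathway list by size of change, the nearest tested and any overlapping genes, and the 3 genes most like the members with the largest rise and fall. Alternatives were DESeq2 1.42.0, other scalings and filters, limma 3.58.1 on log2 FPKM, a replicate block and leaving out each library.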

Additional observations from a re-analysis of the deposited data

Results flagged for a closer look

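Among 22 groups of 4 libraries examined, 4 held a library whose gap to its nearest neighbour was large beside the group's range by Dixon's criterion, which chance meets in about 1 of 20 groups. GFP replicate 2 was high for Bmp4, with a log2 CPM of 5.91, and without it the log2 fold change of Bmp4 was -1.49. OEIRF7 replicate 3 was low for Gdf6, with a log2 CPM of 9.05, and high for Grem1, with a log2 CPM of 4.72. It was also low for the log2 ratio of BMP ligand to Grem1 FPKM, at 4.73, a value that shares its Grem1 and Gdf6 reads with the other flags. Without OEIRF7 replicate 3 the log2 fold changes were -0.06 for Gdf6 and 1.92 for Grem1, and the difference of the median log2 ratios was -2.18 beside -2.20 with it.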

How the results depend on the processing

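The 7 called members kept their direction and their call under all 17 refits: their log2 fold changes ran from 1.14 to 1.74 for Bmp2, from 1.46 to 2.19 for Grem1, from 0.37 to 0.40 for Fstl3, from -1.59 to -1.43 for Bmp4, from -1.81 to -1.60 for Bmp6, from -0.98 to -0.89 for Fst and from -0.58 to -0.42 for Inhbb. Inhba, never called, ran from -0.0173 (without OEIRF7 replicate 3) to 0.050 (without OEIRF7 replicate 1), and its sign was also turned at -0.0137 without GFP replicate 2. Asking for a log2 fold change past 1 left 2 members lower instead of 4, and 5 pathway genes higher and 4 lower instead of 12 and 14. Leaving Gdf6 out of the BMP ligand sum moved the difference of the median log2 ratios to Grem1 from -2.20 to -3.28. The difference for activin chains over follistatins was -0.02, and it was 0.0012 with CPM, 0.00047 without Inhbb and -0.07 to 0.03 when 1 library was left out. Libraries with the same replicate number had deviations correlated at 0.079, 0.095, 0.14 and 0.10, so the numbers were not taken to pair them, although each of the 8 libraries correlated best with its own number. With a replicate block Gdf6 had a log2 fold change of -0.11 and an adjusted p of 0.026, so it joined the members called lower. The other calls among the members were unchanged by the block. No alternative shifted the median of all genes by more than 0.04 on the log2 scale. Members below 5 CPM in GFP libraries, Bmp2 and Grem1, rest on the fewest counts.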
